A study of Apis mellifera with 6 samples.

Results

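The translation factors and aminoacyl-tRNA synthetases of the honeybee ovary were described in RNA-seq of queen, queen-less worker and queen-right worker ovaries. The genes were taken by name. An entry belonged to the set when its symbol started with eIF (in any case), EF and a digit, Ef1, Ef2, eRF or Aats-, and 4EHP was added. This gave 28 of the 11169 gene entries of the table. Among them, 14 are counted here under translation initiation and its regulators, 1 is an elongation factor (Ef1beta) and 13 are aminoacyl-tRNA synthetases. No symbol started with eRF. Many entries of the table carry only a locus number, so translation factors without a name of this kind are not in the set.

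Each ovary type was represented by 2 libraries, each from its own pool of dissected ovaries of female Apis mellifera kept in hives around Dunedin. The queens were laying queens of about 12 months that headed colonies. The queen-less workers came from nucleus boxes without a queen and were dissected 2 to 4 weeks after the box was set up, with an ovary score of 3. The queen-right workers came from hives with a laying queen and had an ovary score of 0, the score of an inactive ovary. The age of the workers is not given in the labels. No line or genetic change separates the groups, and queens and workers also differ in caste.

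Translation starts when a small ribosomal subunit carrying the initiator tRNA is brought to the capped end of an mRNA, scans to the start codon and is joined by the large subunit, and each of these steps is run by its own initiation factors. Elongation factors then bring the charged tRNAs to the ribosome, and aminoacyl-tRNA synthetases charge each tRNA with its amino acid. In insects the growing oocyte is stocked with ribosomes and maternal mRNAs, and much of the control of early development rests on which of these mRNAs are translated.

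The values are RPKM, read numbers divided by gene length and by library size, so that levels can be compared between genes. RPKM summed to 331806 to 332091 in queens, 330953 to 336392 in queen-less workers and 385121 to 411992 in queen-right workers. Read counts are not used here and the absolute depth is unknown. The steps between low RPKM values gave 98.0% to 104% of the depth of queen replicate 1 for the other libraries. Only ratios close to equal depth were searched, so these values cannot show whether the depths were alike. Marker genes of other tissues moved with the groups. The summed RPKM of 5 muscle genes was 111 to 119 in queens, 222 to 261 in queen-less workers and 2388 to 3009 in queen-right workers. Most of the sum in queens was Mlc-c, with means of 93.1 RPKM in queens, 93.0 RPKM in queen-less workers and 154 RPKM in queen-right workers. The other 4 were lower in queens than in queen-less workers, by 2.39 to 2.95 on the log2 scale. The summed RPKM of 7 fat body genes was 18.8 to 41.0 in queens, 52.9 to 64.6 in queen-less workers and 1376 to 1753 in queen-right workers. That of 8 germline genes was 3123 to 3231 in queens, 2437 to 2821 in queen-less workers and 1175 to 1256 in queen-right workers. The rise of this last sum was that of mael, with means of 2291 RPKM in queens, 1709 RPKM in queen-less workers and 77.0 RPKM in queen-right workers. In the same order orb, which went the other way, had means of 538, 573 and 1011 RPKM. Of the germline markers vas, mael, Ago3 and BicD were higher in both queens and queen-less workers than in queen-right workers, egl, nanos and spn-E passed in neither comparison, and orb was lower in both. The part of these shifts in the results below was not tested, and in bulk ovaries fewer cells of a type and less RNA per cell cannot be told apart.

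All 28 genes were expressed in every library. The lowest value was 3.98 RPKM (Aats-phe in queen replicate 1) and the highest 645 RPKM (eIF5 in the same library). In each library 25 or 26 of the 28 lay above the median of all entries. The median of the 28 was 49.2 and 48.4 RPKM in the queen libraries, 43.6 and 46.7 RPKM in the queen-less worker libraries and 38.0 and 34.9 RPKM in the queen-right worker libraries. The order of the genes by level differed between the types. eIF5 ranked first of the 28 in queens and in queen-less workers and 4 in queen-right workers, where Ef1beta ranked first.

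**Figure D1:**
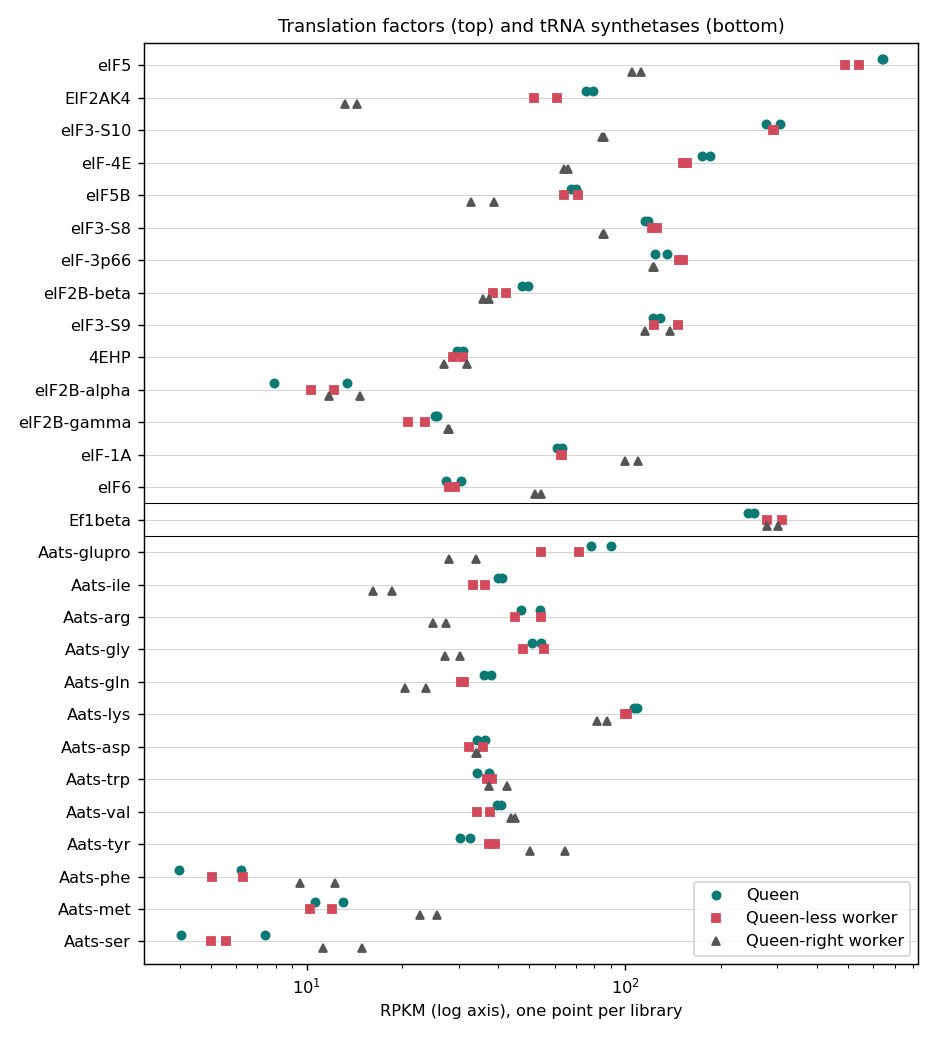
RPKM (log axis) of the 28 genes in each of the 6 libraries, with 1 point per library, grouped into initiation and its regulators (top), elongation (middle) and tRNA synthetases (bottom). The queen and queen-less worker points mostly lie together, while the queen-right worker points stand to the left for eIF5, EIF2AK4 and eIF3-S10 and to the right for eIF6, eIF-1A and Aats-met.

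The tests were made with limma, fitted to all 6 libraries on the log2 of RPKM + 1 times a scaling factor per library, recovered from the deposited normalized values. An entry was called where its Benjamini-Hochberg adjusted p over all 8778 entries tested was below 0.05. The factor is 0.898 and 0.856 in the queen-right worker libraries and 0.994 to 1.01 in the others, so equal RPKM in queen-less and queen-right workers gives a positive log2 fold change. With 2 pools against 2, the p-values borrow their variance from the whole table and measure the spread between these pools.

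In queen-less worker ovaries, 19 of the 28 genes differed from queen-right worker ovaries, 14 higher and 5 lower. The share called, 67.9%, was close to that of all entries tested, of which 67.6% were called. The split by direction differed, as 14 of the 28 (50%) were higher and 17.9% lower, against 30.6% and 37.0% of all entries. The median log2 fold change of the 28 was 0.30, against −0.13 over all entries. The largest changes were rises: 9 of the 28 genes rose by at least 1 on the log2 scale and no gene of the set fell by as much. Counting both directions together, 37.6% of all entries were called with a change of that size, so rises alone made up a smaller share. No test of the set as a whole was made. Without queen-less worker replicate 1, and likewise without replicate 2, only 3 genes of the set were called lower. With unscaled RPKM, which moved the median of all entries to −0.32, 12 of the 28 were higher and 8 lower and the set's median was 0.11. Since a factor per library shifts all genes alike, the distance between both medians, 0.43 in queen-less workers and 0.45 in queens, could not change with it. With quantile normalization, which can change it, the distance was 0.23 in queen-less workers and 0.19 in queens.

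Between queen and queen-right worker ovaries, 20 of the 28 genes differed, 14 higher and 6 lower in queens, where 71.8% of all entries were called, 31.3% higher and 40.6% lower. The median was 0.26 in the set and −0.19 over all entries. Again 9 of the 28 genes rose and none fell by at least 1 on the log2 scale. Counting both directions together, 44.1% of all entries were called with a change of that size, so here too rises alone made up a smaller share. The 14 genes higher in queens were the same 14 that were higher in queen-less workers, and the 5 lower in queen-less workers were also lower in queens, with Aats-phe as the sixth. Both comparisons use the same queen-right libraries and are not independent.

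**Figure D2:**
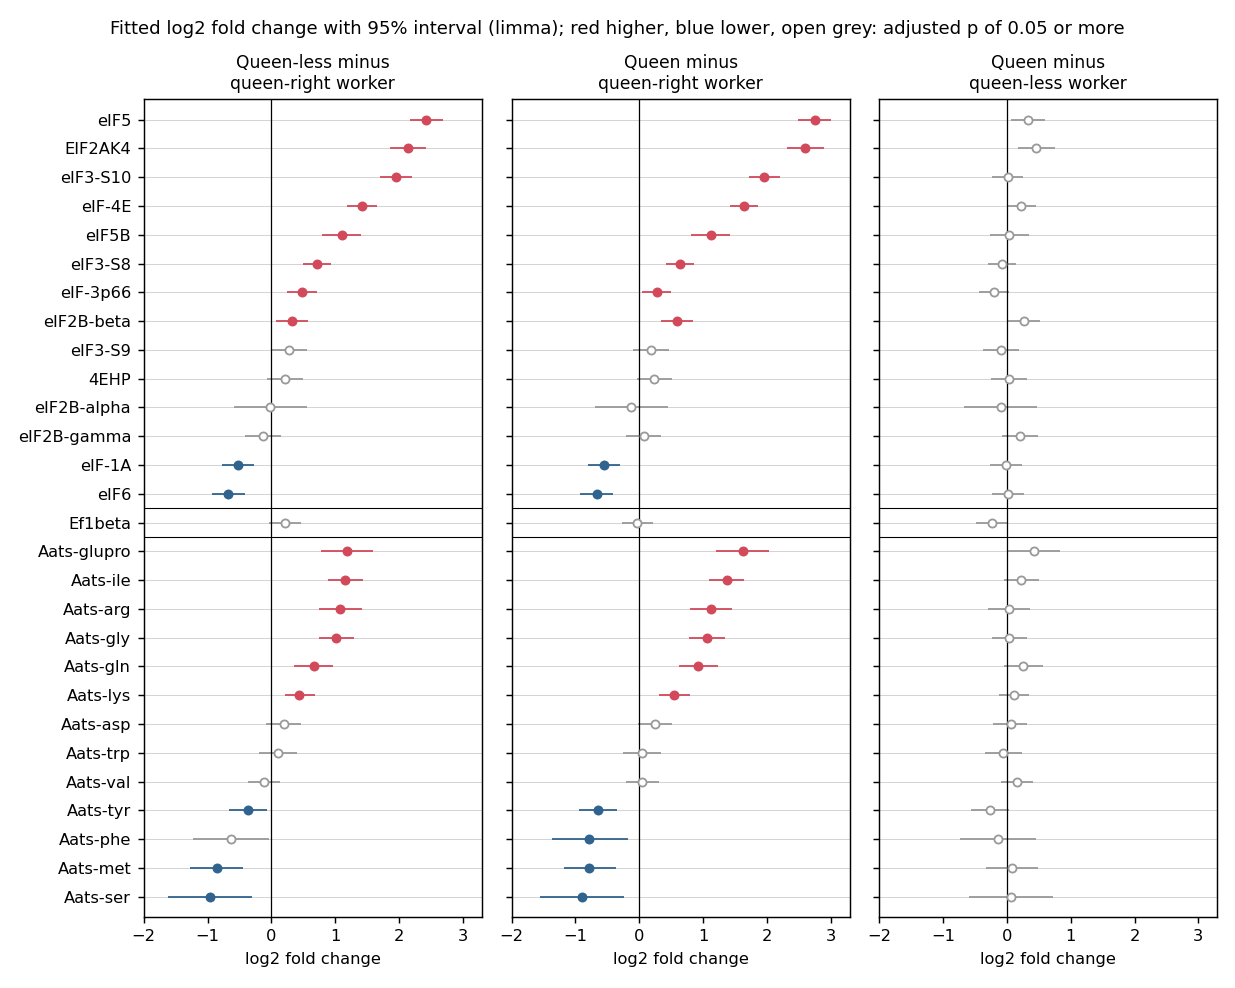
Log2 fold change (x axis) of each gene in the 3 comparisons, with 95% intervals from limma. Red points are called higher, blue points lower and open grey points have an adjusted p of 0.05 or more. From eIF5 at the top of the initiation genes to eIF6 at their foot the values against queen-right workers run from 2.43 to −0.68 in queen-less workers, and in the panel of queens against queen-less workers all points are open.

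**Figure D3:**
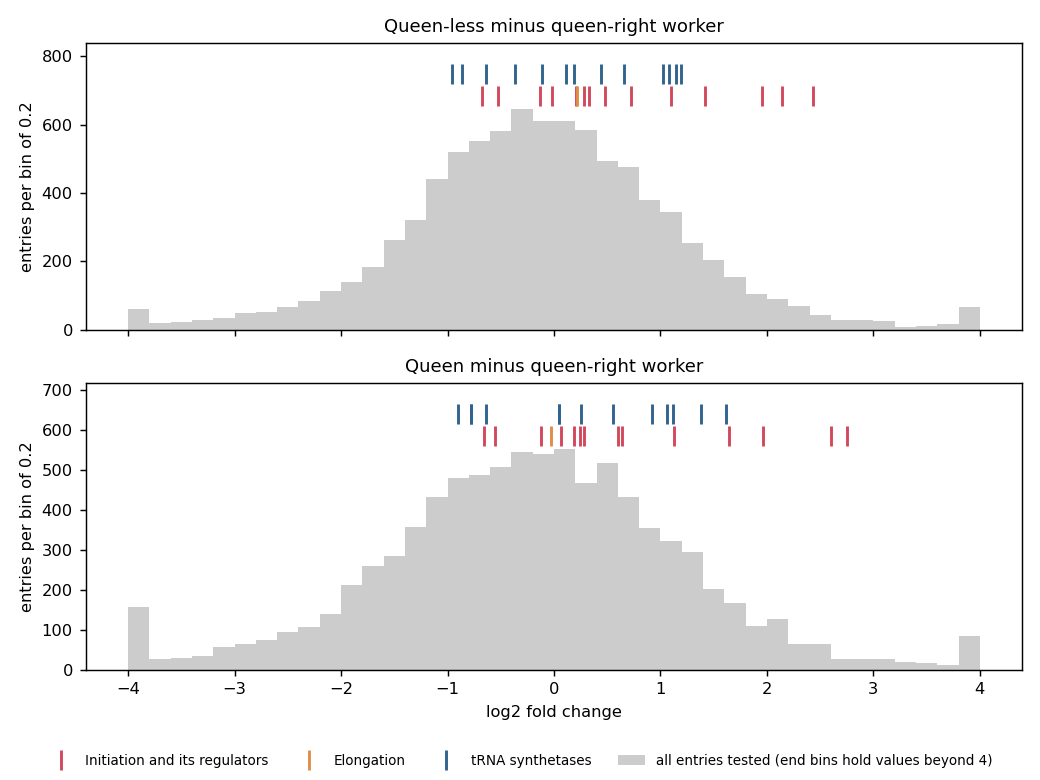
Histograms of the log2 fold change (x axis) of all 8778 entries tested against queen-right workers, in queen-less workers (upper panel) and queens (lower panel), in grey as entries per bin of 0.2 with values beyond 4 in the end bins, and the genes of the set as ticks above. The ticks of initiation and its regulators reach 2.43 and 2.75 on the right and end at −0.68 and −0.66 on the left.

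eIF5 had the largest rise of the set. It is the factor that makes eIF2 hydrolyse its GTP once the scanning small subunit has found the start codon. It had 645 and 641 RPKM in queens, 489 and 543 RPKM in queen-less workers, and 105 and 112 RPKM in queen-right workers. Every queen and queen-less library lay above 480 RPKM and both queen-right libraries below 120 RPKM. The log2 fold change was 2.43 in queen-less against queen-right workers (standard error 0.11, limma adjusted p = 5.16e-06) and 2.75 in queens against queen-right workers (standard error 0.11, limma adjusted p = 1.77e-06). eIF5 (gene ID 408979) lies on scaffold NW_003378095 from 524666 to 539969 of the assembly used in the table, whose name is not given in the sources used here, and no other entry overlaps it.

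eIF-1A moved the other way. This factor, which helps the small subunit to bind the initiator tRNA and to scan, had 61.0 and 63.1 RPKM in queens, 63.4 and 63.1 RPKM in queen-less workers, and 110 and 99.9 RPKM in queen-right workers, so it was lower in both queens and queen-less workers. Its log2 fold change was −0.53 in queen-less workers (limma adjusted p = 0.00314) and −0.55 in queens (limma adjusted p = 0.0023). The ratio of eIF5 to eIF-1A in RPKM was therefore 10.6 and 10.1 in queens, 7.71 and 8.61 in queen-less workers, and 0.954 and 1.12 in queen-right workers. The difference between the log2 fold changes of eIF5 and eIF-1A was 2.96 in queen-less against queen-right workers, given as a description because a gene that rose was set against one that fell.

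eIF5B is the GTPase that joins the large subunit to the small one, and eIF6 binds the large subunit and keeps it from joining. They moved in opposite directions. eIF5B had 70.0 and 67.5 RPKM in queens, 64.3 and 71.1 RPKM in queen-less workers, and 38.8 and 32.7 RPKM in queen-right workers. Its log2 fold change was 1.10 in queen-less against queen-right workers (standard error 0.13, limma adjusted p = 0.000235). eIF6 had 30.4 and 27.3 RPKM in queens, 29.3 and 28 RPKM in queen-less workers, and 52.1 and 54.3 RPKM in queen-right workers. The log2 fold change of eIF6 was −0.68 (standard error 0.11, limma adjusted p = 0.00106). In neither gene did the queen-right libraries overlap those of the other types.

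Of the 4 subunits in the set of eIF3, the large scaffold on the small subunit that binds the other factors, 3 rose, by unequal amounts, and eIF3-S9 passed in neither comparison. eIF3-S10, known in other species as subunit a, had 306 and 277 RPKM in queens, 290 and 292 RPKM in queen-less workers, and 85.9 and 84.5 RPKM in queen-right workers. Its log2 fold change was 1.95 in queen-less against queen-right workers (standard error 0.10, limma adjusted p = 7.58e-06) and 1.96 in queens (limma adjusted p = 4.4e-06). eIF3-S10 (gene ID 414004) lies on scaffold NW_003378149 from 470247 to 475723, with no overlapping entry.

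eIF3-S8, subunit c, rose less, with 118 and 115 RPKM in queens, 122 and 126 RPKM in queen-less workers, and 85.2 and 85.8 RPKM in queen-right workers, and a log2 fold change of 0.72 in queen-less workers (limma adjusted p = 0.000346). eIF-3p66, subunit d, had 135 and 124 RPKM in queens, 151 and 148 RPKM in queen-less workers, and 122 and 123 RPKM in queen-right workers. It was called in both comparisons with queen-right workers, with log2 fold changes of 0.48 in queen-less workers and 0.28 in queens. The call in queens was lost in 9 of 19 alternatives. Among them were unscaled RPKM (0.08) and quantile normalization (0.07), where the value came near 0. It was also lost on leaving out any single library other than queen-right worker replicate 1 (0.21 to 0.34 on the log2 scale without each of those). eIF3-S9, subunit b, had 128 and 122 RPKM in queens, 146 and 123 RPKM in queen-less workers, and 115 and 138 RPKM in queen-right workers. Its libraries overlapped between the types and it passed in neither comparison (log2 fold change in queen-less workers 0.28, limma adjusted p = 0.0725, and in queens 0.19, limma adjusted p = 0.192). In queen-less workers it was called higher without queen-right worker replicate 2 (0.38, limma adjusted p = 0.0334) and in both types with the median of ratios as scaling (0.39 and 0.37).

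The ratio of eIF3-S10 to eIF3-S9 in RPKM was 2.38 and 2.27 in queens, 1.99 and 2.38 in queen-less workers, and 0.746 and 0.611 in queen-right workers. The log2 fold changes of eIF3-S10 and eIF3-S9 differed by 1.68 in queen-less against queen-right workers (standard error 0.15). Against eIF3-S8 the difference was 1.23 and against eIF-3p66 it was 1.48. eIF3-S10 was taken as the partner in these differences with its larger rise already seen, so they are a description. Of the eIF3 subunits known in Drosophila under other names, Trip1, subunit i, was lower in both comparisons, at −0.31 in queen-less workers (limma adjusted p = 0.0293) and −0.50 in queens (limma adjusted p = 0.00287), and Adam, subunit j, was called in neither comparison, at −0.11 and −0.27.

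**Figure D4:**
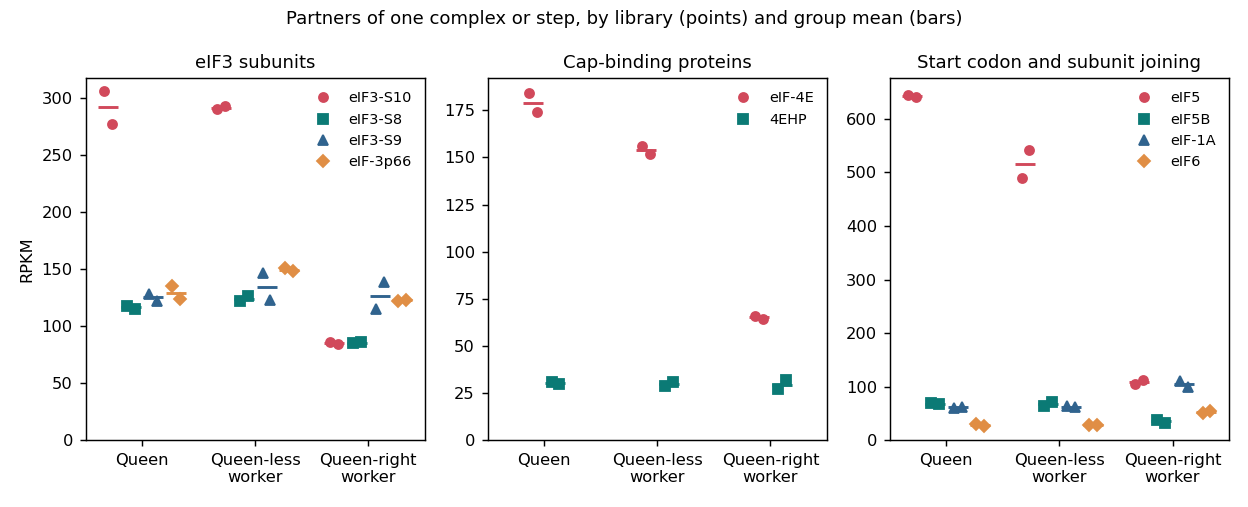
RPKM (linear axis from 0) of eIF3 subunits (left), the cap-binding proteins (middle) and factors of start codon choice and subunit joining (right), by ovary type, with 1 point per library and a bar at the mean of 2 libraries. eIF3-S10 stands at 277 to 306 RPKM in queens and queen-less workers and at 84.5 to 85.9 RPKM in queen-right workers, where it meets eIF3-S8, while 4EHP stays between 27.04 and 31.98 RPKM in all 6 libraries.

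Among the cap-binding proteins, eIF-4E rose and 4EHP did not pass the threshold. eIF-4E binds the cap and starts the loading of the ribosome. 4EHP also binds the cap but does not recruit the ribosome, and in Drosophila it represses maternal mRNAs. eIF-4E had 184 and 174 RPKM in queens, 156 and 152 RPKM in queen-less workers, and 66.03 and 64.31 RPKM in queen-right workers, and 4EHP had 30.99 and 29.65 RPKM in queens, 28.7 and 30.9 RPKM in queen-less workers, and 27.04 and 31.98 RPKM in queen-right workers. The log2 fold change of eIF-4E was 1.42 in queen-less workers (standard error 0.10, limma adjusted p = 1.73e-05) and 1.64 in queens (standard error 0.10, limma adjusted p = 6.62e-06). That of 4EHP was 0.21 (95% interval −0.07 to 0.49, limma adjusted p = 0.154) and 0.24 (95% interval −0.04 to 0.52, limma adjusted p = 0.103). With the length trend of the libraries removed 4EHP was also called higher in both, at 0.54 and 0.60, and with the median of ratios in queens at 0.42.

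The ratio of eIF-4E to 4EHP in RPKM was 5.94 and 5.87 in queens, 5.43 and 4.92 in queen-less workers, and 2.44 and 2.01 in queen-right workers. Their log2 fold changes differed by 1.21 in queen-less against queen-right workers and by 1.40 in queens, which is a description, since the pair was chosen after its values were seen. The gene model of eIF-4E (gene ID 551901, scaffold NW_003378271 from 99854 to 107451) overlaps 3 other entries, mus209 by 1299 bp, Pof by 2819 bp and LOC100577690 by 227 bp. These were low, at 15.5 to 24.2 RPKM for mus209, 0.17 to 1.22 RPKM for Pof and 6.94 to 12.97 RPKM for LOC100577690. Neither mus209 nor LOC100577690 passed the threshold against queen-right workers.

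EIF2AK4 had the second largest rise. It is the gene of the kinase known as Gcn2 in yeast and flies, which phosphorylates eIF2 when uncharged tRNAs accumulate, and it is in the set by its symbol, not as a factor of the ribosome. EIF2AK4 had 79.3 and 75.6 RPKM in queens, 51.7 and 61.2 RPKM in queen-less workers, and 13.2 and 14.4 RPKM in queen-right workers. The groups did not overlap, with queens highest, but the difference between queens and queen-less workers was not called (0.46, limma adjusted p = 0.141). The log2 fold change was 2.14 in queen-less against queen-right workers (standard error 0.12, limma adjusted p = 9.11e-06) and 2.60 in queens against queen-right workers (standard error 0.12, limma adjusted p = 3.11e-06). EIF2AK4 (gene ID 725088) spans 3954399 to 3973350 on scaffold NW_003378039, and LOC100577001 lies inside it with at most 2.88 RPKM in any library.

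eIF2B recharges eIF2 with GTP, and the phosphorylation of eIF2 blocks it. Of its 3 subunits in the set, eIF2B-beta had 47.4 and 49.6 RPKM in queens, 42.2 and 38.3 RPKM in queen-less workers, and 37.2 and 35.7 RPKM in queen-right workers. It was called higher in queen-less workers (log2 fold change 0.33, limma adjusted p = 0.0285) and in queens (0.60, limma adjusted p = 0.00162). The first call was lost in 9 of 19 alternatives, among them unscaled RPKM (0.14) and quantile normalization (0.15). It was also lost on leaving out any single library other than queen-right worker replicate 1 (0.26 to 0.39 without each of those). eIF2B-gamma had 25.6 and 25.3 RPKM in queens, 23.5 and 20.8 RPKM in queen-less workers, and 28.03 and 27.81 RPKM in queen-right workers, and eIF2B-alpha lay between 7.92 and 14.7 RPKM over the 6 libraries. Neither was called. Of these, eIF2B-alpha had the wider 95% interval, from −0.59 to 0.56 in queen-less against queen-right workers. The whole gene model of eIF2B-alpha, 5334 bp, lies within LOC411579, which was lower at −0.61 in queen-less workers (limma adjusted p = 0.0088). LOC411582 overlaps eIF2B-alpha by 2318 bp and was higher at 0.85 (limma adjusted p = 0.00413). Reads in these stretches cannot be assigned to 1 gene.

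Ef1beta, the exchange factor that reloads the tRNA-carrying elongation factor with GTP, was the most abundant gene of the set in queen-right workers. Ef1beta had 253 and 242 RPKM in queens, 310 and 279 RPKM in queen-less workers, and 279 and 301 RPKM in queen-right workers. It was called in neither comparison, with log2 fold changes of 0.22 in queen-less workers (95% interval −0.03 to 0.46) and −0.03 in queens (95% interval −0.27 to 0.22). The scaling decides the sign in queens, where the median of ratios gave 0.15 and quantile normalization 0.20. In queen-less workers these gave 0.33 and 0.50, both past the threshold. eIF5 reached 2.55 and 2.65 times the RPKM of Ef1beta in queens and 1.58 and 1.95 times in queen-less workers, against 0.377 and 0.373 times in queen-right workers.

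Of the 13 tRNA synthetases, 6 rose and 3 fell in queen-less against queen-right workers, and 6 rose and 4 fell in queens. The share called was 69.2% in queen-less workers and 76.9% in queens, near the 67.6% and 71.8% of all entries, with 46.2% higher in both, against 30.6% and 31.3% of all entries. Those that rose in both were Aats-glupro, Aats-ile, Aats-arg, Aats-gly, Aats-gln and Aats-lys. Those that fell in both were Aats-met, Aats-ser and Aats-tyr. The summed RPKM of the 13 was 532 and 545 in queens, 472 and 525 in queen-less workers, and 440 and 428 in queen-right workers, a smaller difference than that of the 14 initiation genes, at 1873 and 1799 in queens, 1670 and 1708 in queen-less workers, and 898 and 920 in queen-right workers. eIF5 and eIF3-S10 carried most of that difference, since the other 12 initiation genes summed to 923 and 881 RPKM in queens, 890 and 873 RPKM in queen-less workers, and 707 and 723 RPKM in queen-right workers.

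Aats-glupro, a fused enzyme in animals that charges the tRNAs of both glutamate and proline, rose most. It had 78.3 and 90.3 RPKM in queens, 54.4 and 71.6 RPKM in queen-less workers, and 34.05 and 27.96 RPKM in queen-right workers, with log2 fold changes of 1.19 in queen-less workers (standard error 0.18, limma adjusted p = 0.000684) and 1.62 in queens (standard error 0.18, limma adjusted p = 0.000116). Its neighbour LOC551374 overlaps it by 465 bp and was also higher in both types. Aats-ile, the enzyme for isoleucine, had 39.9 and 41.0 RPKM in queens, 33.2 and 36.2 RPKM in queen-less workers, and 16.2 and 18.6 RPKM in queen-right workers. The log2 fold changes of Aats-ile were 1.15 (limma adjusted p = 0.000109) and 1.38 (limma adjusted p = 3.49e-05). In both genes every queen and queen-less library lay above both queen-right libraries.

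Aats-arg rose by 1.08 on the log2 scale in queen-less workers and by 1.12 in queens, and Aats-gly rose by 1.02 and 1.06. Aats-gln, with 35.98 and 37.88 RPKM in queens, 30.4 and 31.2 RPKM in queen-less workers, and 23.7 and 20.4 RPKM in queen-right workers, rose by 0.66 and 0.92. Aats-lys was the most abundant synthetase in every library, with 107 and 109 RPKM in queens, 99.7 and 102 RPKM in queen-less workers, and 87.5 and 81.5 RPKM in queen-right workers. It rose by 0.44 in queen-less workers (limma adjusted p = 0.00587) and by 0.55 in queens (limma adjusted p = 0.00176), and the first call was lost with unscaled RPKM and with quantile normalization.

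The synthetases that were lower in queens or queen-less workers included the least abundant ones. Aats-met had 10.6 and 13.1 RPKM in queens, 10.3 and 12.0 RPKM in queen-less workers, and 25.6 and 22.7 RPKM in queen-right workers, with log2 fold changes of −0.86 in queen-less workers (standard error 0.17, limma adjusted p = 0.00323) and −0.78 in queens (standard error 0.17, limma adjusted p = 0.00471). Aats-ser had 4.04 and 7.42 RPKM in queens, 5.58 and 5 RPKM in queen-less workers, and 14.9 and 11.3 RPKM in queen-right workers. The log2 fold changes of Aats-ser were −0.96 (limma adjusted p = 0.0176) and −0.90 (limma adjusted p = 0.0209), with standard errors of 0.28. Both queen-right libraries stood above all others in both genes, but the calls of Aats-ser were lost without queen-less worker replicate 1 (−1.02) or 2 (−0.91) or queen-right worker replicate 1 (−0.74) in the first comparison, and without queen replicate 1 (−0.53) or queen-right worker replicate 1 (−0.68) in the second. They were also lost with the length trend removed, at −0.61 in queen-less workers and −0.53 in queens, and in queens with quantile normalization, at −0.52.

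Aats-phe, at 3.98 and 6.25 RPKM in queens, 5.07 and 6.31 RPKM in queen-less workers, and 12.3 and 9.57 RPKM in queen-right workers, was called lower in queens only (−0.78, limma adjusted p = 0.0256, against −0.64 and limma adjusted p = 0.057 in queen-less workers). The call in queens was lost without queen replicate 1 (−0.51) or queen-right worker replicate 1 (−0.58), and under 4 other scalings (−0.60 with the median of ratios and with the trimmed mean, −0.33 with quantile normalization and −0.45 with the length trend removed), and in queen-less workers a call was gained at the same −0.64 without queen replicate 1 or 2. In the direct comparison of queens and queen-less workers Aats-phe differed by −0.14 (95% interval −0.74 to 0.45). This interval is wide, so whether its change differs between both types is not settled. Aats-tyr had 32.6 and 30.3 RPKM in queens, 37.5 and 39.0 RPKM in queen-less workers, and 50.1 and 64.8 RPKM in queen-right workers. It was lower in queens (−0.64, limma adjusted p = 0.00283) and in queen-less workers (−0.37, limma adjusted p = 0.0346), and the call in queen-less workers was lost in 10 of 19 alternatives, among them leaving out any single library other than queen-right worker replicate 1 (−0.41 to −0.22 without each of those). Each amino acid can have a cytoplasmic and a mitochondrial synthetase, and the symbols do not say which of them these entries encode.

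Aats-asp, Aats-trp and Aats-val were called in neither comparison. Aats-asp lay between 32.3 and 36.2 RPKM, Aats-trp between 34.2 and 42.7 RPKM and Aats-val between 34.1 and 44.9 RPKM over all 6 libraries. In mammals, the synthetases for glutamate and proline, isoleucine, arginine, lysine, glutamine, methionine and aspartate sit, with that for leucine, in a common multi-synthetase complex. This sorting was made after the values had been seen, so no test was run. Of the 7 synthetases of these amino acids, 5 rose in both laying types and 1 (Aats-met) fell in both. Among the other 6 entries 1 (Aats-gly) rose in both, while 2 fell in queen-less workers and 3 in queens. Across all entries tested, rises made up 30.6% in queen-less workers and 31.3% in queens, and falls 37.0% and 40.6%. The symbols do not separate cytoplasmic from mitochondrial enzymes, so membership in such a complex cannot be told for these entries, Aats-met included.

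Between queen and queen-less worker ovaries, none of the 28 genes passed the threshold in limma, which called 1.48% of all entries in this comparison (130 of 8778), 0.0797% higher in queens and 1.28% with a change of at least 1 on the log2 scale. At an unadjusted p under 0.05 there were 4, EIF2AK4, Aats-glupro, eIF5 and eIF2B-beta, all higher in queens, which is 14.3% of the set against 16.2% of all entries. EIF2AK4 had the largest difference, 0.46 on the log2 scale (95% interval 0.18 to 0.75, limma adjusted p = 0.141), followed by Aats-glupro with 0.43 (95% interval 0.02 to 0.84, limma adjusted p = 0.284) and eIF5 with 0.33 (95% interval 0.07 to 0.59, limma adjusted p = 0.222). In each of these genes both queen libraries lay above both queen-less libraries. They were picked for the largest differences, so this separation is no further evidence of a difference. At the other end, Aats-tyr differed by −0.27 (95% interval −0.57 to 0.03) and Ef1beta by −0.24 (95% interval −0.49 to 0.01). eIF3-S10 differed by 0.01 (95% interval −0.24 to 0.25). With 2 pools a type, a gene that was not called may still differ by any amount within its interval.

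Other genes of translation were taken from a list of 47 symbols, of which 18 were found and tested. In queen-less against queen-right workers 6 were higher and 7 lower, and in queens 7 were higher and 5 lower, with medians of −0.13 and −0.20. These shares, 33.3% higher and 38.9% lower in queen-less workers and 38.9% and 27.8% in queens, stand beside 30.6% and 37.0%, and 31.3% and 40.6%, of all entries, and the medians beside −0.13 and −0.19. Elf, in Drosophila the GTPase that works with the release factor, had a mean of 252 RPKM in queens and 261 RPKM in queen-less workers, against 143 RPKM in queen-right workers, and rose by 1.06 in queen-less workers (limma adjusted p = 8.76e-05) and by 1.01 in queens. pelo, which frees stalled ribosomes, rose by 0.82 and 0.84, and bel, an RNA helicase, by 0.88 and 0.70. vas, a germline helicase that binds eIF5B in Drosophila, rose by 3.60 and 3.33.

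Genes of the signals that act on translation moved both ways. Tsc1, which restrains the TOR kinase, rose by 1.13 on the log2 scale in queen-less workers and by 1.20 in queens. gig, its partner Tsc2 in the same complex, was lower in queen-less workers, at −0.40 (limma adjusted p = 0.0437), and was not called in queens, at −0.32 (limma adjusted p = 0.0838). Rheb, which activates TOR, had a mean of 59.9 RPKM in queens and 59.0 RPKM in queen-less workers, against 182 RPKM in queen-right workers, and its log2 fold changes were −1.42 (limma adjusted p = 3.66e-05) and −1.40 (limma adjusted p = 3e-05). Tor itself rose by 0.37 (limma adjusted p = 0.0327) and 0.44 (limma adjusted p = 0.0147). crc, named after the fly relative of ATF4, a transcription factor that acts downstream of eIF2 phosphorylation, was lower, with log2 fold changes of −1.69 and −1.75. Rack1, a protein of the small ribosomal subunit, was lower at −2.03 and −2.44, and Tctp at −2.14 and −2.12. PEK, the other eIF2 kinase on the list, was called in neither comparison.

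The 28 genes are scattered over the assembly of the table. Scaffold NW_003378039 holds 3 of them (Aats-met, eIF-3p66 and EIF2AK4), and 3 further scaffolds hold a pair each, 4EHP with Aats-ile, Aats-asp with Aats-tyr and Aats-phe with eIF2B-alpha. None of these groups was called in one direction throughout. The gene models span 1556 bp (Ef1beta) to 32820 bp (eIF5B), and 13 of the 28 overlap at least 1 other entry of the table. The sources used here do not say whether reads were counted by strand, so reads in the shared stretches cannot be assigned. Among the called genes, LOC551509 overlaps Aats-lys by 478 bp and rose by 1.14 in queen-less workers, LOC552767 overlaps Aats-gln by 560 bp and was lower at −1.29, and Vps33B overlaps eIF3-S8 by 1073 bp and was not called.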

How the data were processed

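RNA-seq values of 6 ovary libraries were used, with groups and pool numbers from the sample labels. The authors deposited RPKM for 11169 gene entries. They also deposited a normalized signal, which equals RPKM + 1 multiplied by 1 factor per library. That factor was taken as the median ratio over entries of at least 50 RPKM. The aligner, the counting program and the assembly are not given in the sources used here. Another 12 columns of values per sample, 12 columns of group means or pooled values and 3 columns of the authors' adjusted p-values were not used. All 28 genes matched the table of Amel_HAv3.1 by gene ID, which was used for this check only. No sequence was at hand to print.

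Groups were compared with limma 3.58.1 in R 4.3.3 on log2((RPKM + 1) × factor), with a variance trend, on the 8778 entries that reached 1 RPKM or more in 2 or more libraries, with Benjamini-Hochberg adjustment at 0.05. A fold change on this scale understates that of low genes. Differences between eIF3 subunits were fitted with every entry minus the partner. The model was tested on simulated data with few changed genes and no scaling factors. That test does not cover comparisons in which most entries are called. Tables and figures were made with Python 3.11.15. The genes and lists, and the genes given with all values (in each role the 2 largest rises, the 2 largest falls and the 2 highest levels, and the subunits of a complex), were chosen with earlier results of these data known. eIF-4E, 4EHP, eIF5B, Aats-gln, Aats-phe and Aats-tyr were added to this rule after their values were seen. From the lists fixed by symbol, NOS (a different gene from nanos), the entry Crc and aub, which stands on 2 entries, were left out. Of 9, 14 and 7 germline, muscle and fat body symbols 8, 5 and 7 were found. Alternatives covered the filter, pseudocount, scaling, gene length, libraries in the fit, replicate block, variance trend, threshold and each library left out.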

Additional observations from a re-analysis of the deposited data

How the results depend on the processing

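Of the 14 genes that rose in queen-less workers, 12 were called higher in all 19 alternative fits, and of the 5 lower genes 3 (Aats-met, eIF-1A and eIF6). In queens against the same libraries it was 13 of 14 and 4 of 6. No called gene changed sign. Raising the limit to a change of 1 on the log2 scale left, by construction, 9 called genes in both comparisons with queen-right workers, 9 higher and 0 lower. Lower genes in queen-less workers numbered 8 with unscaled RPKM and 3 to 5 with each library left out. The median of the 28 in queen-less workers was 0.11 for unscaled RPKM, 0.42 with the median of ratios and with the trimmed mean of log ratios, 0.19 with quantile normalization and 0.56 with the length trend removed. In queens it became 0.06, 0.44, 0.44 and, after removal of the trend with length, 0.51. What causes these shifts was not tested. With each library left out, the medians lay between 0.27 and 0.39 in queen-less against queen-right workers, between 0.21 and 0.31 in queens against queen-right workers and between −0.01 and 0.12 in queens against queen-less workers, where 0 genes were called in every alternative.

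Signs changed for genes near 0. In queen-less against queen-right workers, Aats-asp became −0.0035 with unscaled RPKM, Aats-trp −0.09 with unscaled RPKM and with quantile normalization, Aats-val 0.01 with the median of ratios and with the trimmed mean, and eIF2B-alpha 0.10 with both and 0.17 with quantile normalization. In queens against queen-right workers, unscaled RPKM gave −0.15 for Aats-trp and Aats-val, −0.13 for eIF2B-gamma and −0.01 for eIF3-S9, and quantile normalization gave −0.17 for Aats-trp and Aats-val, −0.03 for eIF2B-gamma, −0.02 for eIF3-S9, 0.20 for Ef1beta and 0.17 for eIF2B-alpha. The median of ratios and the trimmed mean gave 0.15 for Ef1beta and 0.06 for eIF2B-alpha. With the length trend removed Aats-val became −0.05 and Ef1beta 0.38, the latter past the threshold (limma adjusted p = 0.0188). With a library left out, Aats-trp ranged from −0.02 to 0.23 and eIF2B-alpha from −0.13 to 0.10 in queen-less against queen-right workers, and Aats-trp from −0.08 to 0.18, Ef1beta from −0.06 to 0.01 and eIF2B-alpha from −0.47 to 0.23 in queens.

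The pool numbers give no pairing: deviations from the group means correlated at −0.129 to 0.0614 between pools of the same number. With the replicate block, 14 genes were higher and 4 lower in queen-less against queen-right workers, and 13 and 6 in queens. With the queen-right numbers crossed, chosen after seeing the data, it was 15 and 6, and 14 and 6. The read depth is unknown, and the lowest genes, Aats-ser and Aats-phe, had the largest standard errors.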
